A study of Mus musculus with 12 samples.

Results

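RNA from mouse GC1 cells, a line derived from spermatogonia, was compared between Ythdf2 knockout cells overexpressing Setdb1 and Ythdf2 knockout cells with an overexpression control, in 3 libraries each of the 12 in the series. Both groups carry the same Ythdf2 knockout, so the difference between them concerns Setdb1 overexpression on a knockout background. All knockout groups bear 1 line code in the labels. An effect of overexpression therefore cannot be told apart from other differences between 2 derivatives of that line. Genes were included when they reached 1 FPKM (fragments mapped to a gene, corrected for transcript length and for all mapped fragments) in at least 3 of the 12 libraries, which kept 2063 of the 2281 genes in the table. The highest value of the other 218 in the 6 libraries was 1.19 FPKM. The other 6 libraries, 3 of unmodified Ythdf2 knockout cells and 3 of wild-type cells, entered the estimate of spread and serve as background below. All 12 libraries are labelled 24 h. The labels do not say whether the libraries of a group came from separate cultures, so p-values measure the spread between libraries, which may be technical. The promoter of the Setdb1 construct, its delivery and the number of clones were not given in the sources used here.

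SETDB1 is a histone methyltransferase that places trimethyl marks on lysine 9 of histone H3. In embryonic and germ cells it is recruited by TRIM28 and zinc finger proteins to retrotransposons and to some genes, and keeps them silent. YTHDF2 is a cytoplasmic reader that binds m6A-modified RNA and brings it to decay. The series concerns both proteins in DNA damage repair in spermatogonia.

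Setdb1 itself was not analysed here, so the overexpression rests on the labels alone and could not be checked. The table is a selection made by the authors, in which every gene was marked significant in a comparison that the headers do not name. Counts below therefore describe that selection and not the transcriptome. All 2281 genes of the table summed to between 76981 and 81924 FPKM in the 6 libraries, and read depth is unknown. Changes were tested with limma on log2(FPKM + 1), a scale on which changes of low genes come out too small. An adjusted p under 0.05 over the 2063 genes counted as a change.

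Of the 2063 genes, 744 rose with Setdb1 overexpression (36.1%) and 656 fell (31.8%), a total of 67.9%. Each list count below is to be read beside these shares. At an unadjusted p under 0.05 the count was 1450. Most of the changes were small. The median log2 fold change was 0.02, with quartiles of -0.20 and 0.21. The median gene that rose was 22.2% above the control and the median gene that fell was at -19.8%. On the log2 scale, 376 rises and 382 falls were at least 0.25 in size, 59 rises and 101 falls at least 0.5, and 4 rises and 22 falls at least 1. The larger changes were thus mainly falls. The 3 libraries of one group did not overlap the 3 of the other in 1361 of the 1400 changed genes, against 73% of all tested genes. On leaving out each of the 6 libraries in turn, 1187 of the 1400 stayed past the threshold. The log2 fold change was nearly unrelated across genes to transcript GC content (Spearman rho -0.036), transcript length (0.031) and level in the control (-0.061), given here as descriptions over genes that are not independent replicates.

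The targeted gene of the knockout was itself lower with Setdb1 overexpression. Ythdf2 stood at 4.67, 4.99 and 4.23 FPKM in cells overexpressing Setdb1, against 6.14, 6.24 and 6.04 FPKM in the overexpression control, 5.79, 6.07 and 6.28 FPKM in the unmodified knockout and 8.51, 9.33 and 9.15 FPKM in wild-type cells. The highest library with Setdb1 lay below every library of the other groups. The fall against the control was -0.34 on the log2 scale (SE 0.05, adjusted p = 0.000189). An RNA level says nothing of whether a protein is made, and where the gene was edited was not given in the sources used here.

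**Figure D1:**
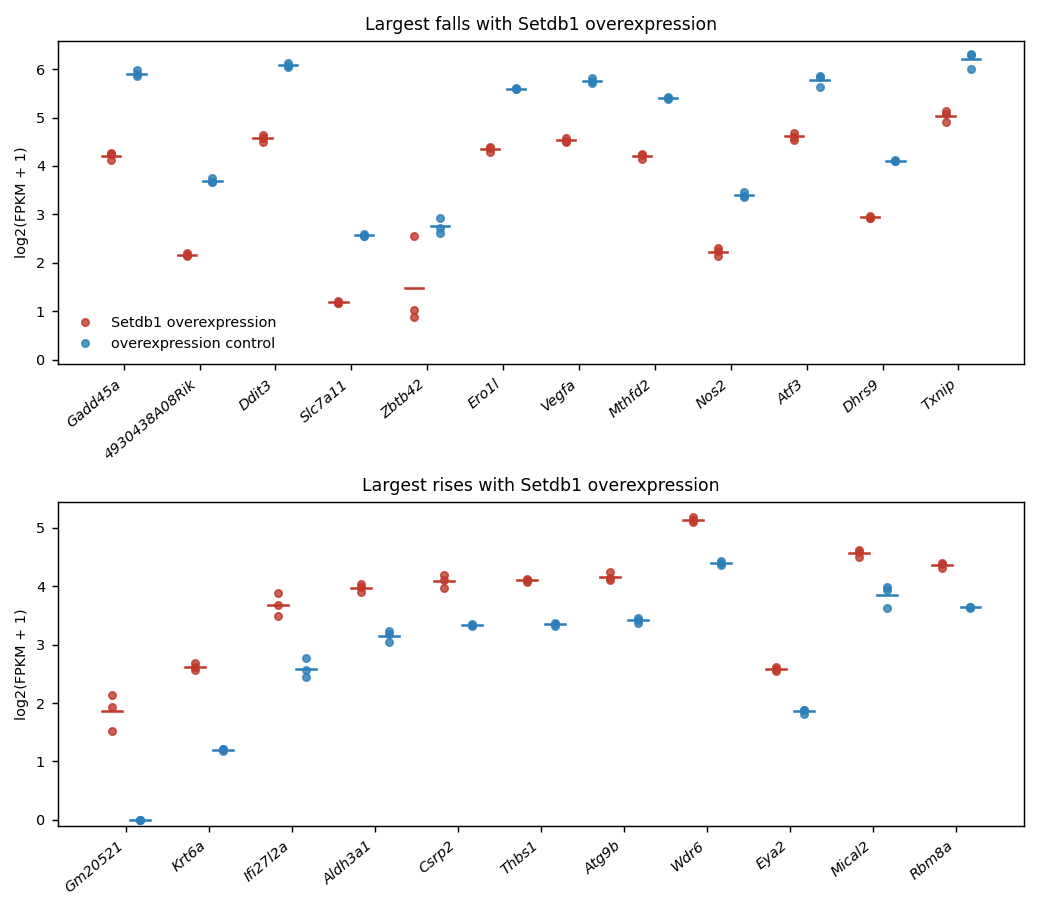
FPKM on the log2(FPKM + 1) scale (y axis) of the 12 genes with the largest falls (top) and 11 of the 12 with the largest rises (bottom) that met the naming rule. Points are single libraries and lines are group means. Setdb1 overexpression is red and overexpression control is blue. In each gene shown the 3 red points lie on 1 side of the 3 blue points, as the rule required. Zbtb42 has 1 red library near the control.

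Genes of the integrated stress response were mostly lower with Setdb1 overexpression. Gadd45a, with the largest fall among the named genes on the log2(FPKM + 1) scale, is in this group. In plain FPKM, Slc7a11 of the same group fell further, to 0.258 of its control level against 0.296 for Gadd45a. This pathway begins when 1 of several kinases phosphorylates the initiation factor eIF2α. Bulk translation then drops, the transcription factor ATF4 is made, and ATF4 with its partners raises genes for amino acid import, amino acid synthesis, one-carbon metabolism and transfer RNA charging. Many of these promoters hold a composite element that joins parts of a C/EBP and an ATF site, here searched as TGATGNAA. This response was read from 2 lists, 1 of amino acid and folate genes and 1 of regulators. Of 26 tested members of both, 22 fell, 2 rose and 2 did not pass, against 31.8% that fell and 36.1% that rose over all tested genes. Promoters of 4 that fell are shown because they hold the element, in RefSeq sequence of build GRCm38.p6 from 250 bases before to 50 after the gene start, 5′ to 3′, with each match to TGATGNAA on either strand in capitals. The 4 genes printed were chosen after their values were seen.
Slc7a11 (chr3:50443564-50443863, minus strand): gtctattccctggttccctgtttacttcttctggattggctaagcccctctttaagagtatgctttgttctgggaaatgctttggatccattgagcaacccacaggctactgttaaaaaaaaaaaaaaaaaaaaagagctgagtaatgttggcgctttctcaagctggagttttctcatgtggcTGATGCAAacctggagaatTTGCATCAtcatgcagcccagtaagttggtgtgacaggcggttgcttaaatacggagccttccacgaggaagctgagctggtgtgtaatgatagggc
Atf3 (chr1:191183284-191183583, minus strand): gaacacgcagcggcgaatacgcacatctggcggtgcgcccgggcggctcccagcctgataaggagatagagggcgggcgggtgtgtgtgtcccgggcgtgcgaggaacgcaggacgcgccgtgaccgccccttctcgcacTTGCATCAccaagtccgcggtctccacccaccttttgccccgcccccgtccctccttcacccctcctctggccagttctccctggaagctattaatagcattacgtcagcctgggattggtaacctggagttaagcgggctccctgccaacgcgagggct
Pycr1 (chr11:120643699-120643998, minus strand): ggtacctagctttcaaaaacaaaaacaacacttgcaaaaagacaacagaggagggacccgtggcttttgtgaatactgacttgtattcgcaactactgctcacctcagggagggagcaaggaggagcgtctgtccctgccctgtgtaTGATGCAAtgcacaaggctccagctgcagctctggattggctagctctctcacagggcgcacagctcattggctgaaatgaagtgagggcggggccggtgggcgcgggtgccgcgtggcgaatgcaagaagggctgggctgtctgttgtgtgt
Aars (chr8:111033592-111033891, plus strand): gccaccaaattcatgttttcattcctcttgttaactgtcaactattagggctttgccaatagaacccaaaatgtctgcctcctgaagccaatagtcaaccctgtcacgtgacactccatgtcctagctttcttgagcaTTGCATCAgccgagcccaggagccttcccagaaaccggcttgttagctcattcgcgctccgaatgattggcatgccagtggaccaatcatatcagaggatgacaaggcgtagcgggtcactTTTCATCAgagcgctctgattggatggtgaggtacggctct
The element was found in 5 of the 20 falling members with a promoter in the table (25%), against 1.88% of 1652 tested genes with a promoter and 4.06% of 27025 promoters of the same length. The fifth was Yars. Over all tested members with a promoter, whether or not they fell, the element was in 5 of 23 (21.7%). The Slc7a11 promoter held 2 matches close together, and the Aars promoter held 1 match before and 1 just after the gene start. A match of letters is a description and not evidence of a bound site.

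All 12 tested members of the amino acid and folate list, of 35 listed, fell, with a median of -0.71 on the log2 scale against 0.02 over all tested genes. Slc7a11, which encodes the cystine importer of the plasma membrane, stood at 1.25, 1.30 and 1.26 FPKM with Setdb1 overexpression, against 4.90, 5.03 and 4.84 FPKM in the control (-1.38, SE 0.03, adjusted p = 1.76e-10). Aldh18a1, which encodes the enzyme that starts proline synthesis from glutamate, stood at 29.9, 29.99 and 30.1 FPKM, against 66.8, 66.7 and 66.9 FPKM in the control (-1.13, SE 0.02, adjusted p = 1.3e-11). Mthfd2, a folate enzyme of the mitochondrion, stood at 16.7, 17.9 and 17.8 FPKM, against 41.997, 41.1 and 40.6 FPKM in the control (-1.19, SE 0.03). In each of the 3 genes the libraries of a group were close together and the groups lay far apart. A second mitochondrial folate enzyme gene, Aldh1l2, changed by -1.14 on the log2 scale. Pycr1, which encodes a later step of proline synthesis, had 4.01, 4.25 and 4.70 FPKM with Setdb1 and 8.90, 10.4 and 10.6 FPKM in the control (-1.04). Transfer RNA synthetases fell less. Eprs, for glutamate and proline, changed by -0.63, Aars, for alanine, by -0.53, and Yars, for tyrosine, by -0.44 on the log2 scale.

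Of 14 tested regulators and signalling genes of the response, of 31 listed, 10 fell and 2 rose, with a median of -0.69. Ddit3, which encodes the transcription factor CHOP, stood at 21.5, 23.9 and 22.97 FPKM with Setdb1 overexpression, against 68.5, 65.2 and 65.8 FPKM in the control (-1.51, SE 0.03, adjusted p = 1.76e-10). Gadd45a, a stress-induced gene of growth arrest, stood at 18.2, 16.4 and 17.9 FPKM, against 61.9, 58.5 and 57.1 FPKM in the control (-1.70, SE 0.04, adjusted p = 2.78e-10). Atf3, a repressor that CHOP and ATF4 induce, stood at 23.3, 22.3 and 24.7 FPKM, against 48.5, 56.5 and 57.3 FPKM in the control (-1.17, SE 0.06). These 3 were each at less than 0.5 of their control level. Atf5, an ATF4 relative, changed by -0.71, the AP-1 repressor gene Jdp2 by -0.76 and Rhbdd1 by -0.68 on the log2 scale. Atf4 itself had uneven libraries, 65.2, 140.4 and 76.4 FPKM with Setdb1 and 140.2, 143 and 168 FPKM in the control, and passed narrowly (adjusted p = 0.0430). The 2 that rose encode eIF2α kinases. Eif2ak2, the kinase PKR that is activated by double-stranded RNA and is also induced by interferon, stood at 26.5, 27.2 and 27.1 FPKM with Setdb1, against 19.9, 18.9 and 18.8 FPKM in the control (0.47, adjusted p = 4.11e-07). Eif2ak4, the kinase GCN2 that senses uncharged transfer RNA, was at 0.14. Atf4, Eif2ak4 and Yars lie outside the rule for named genes and were chosen after their values were seen.

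**Figure D2:**
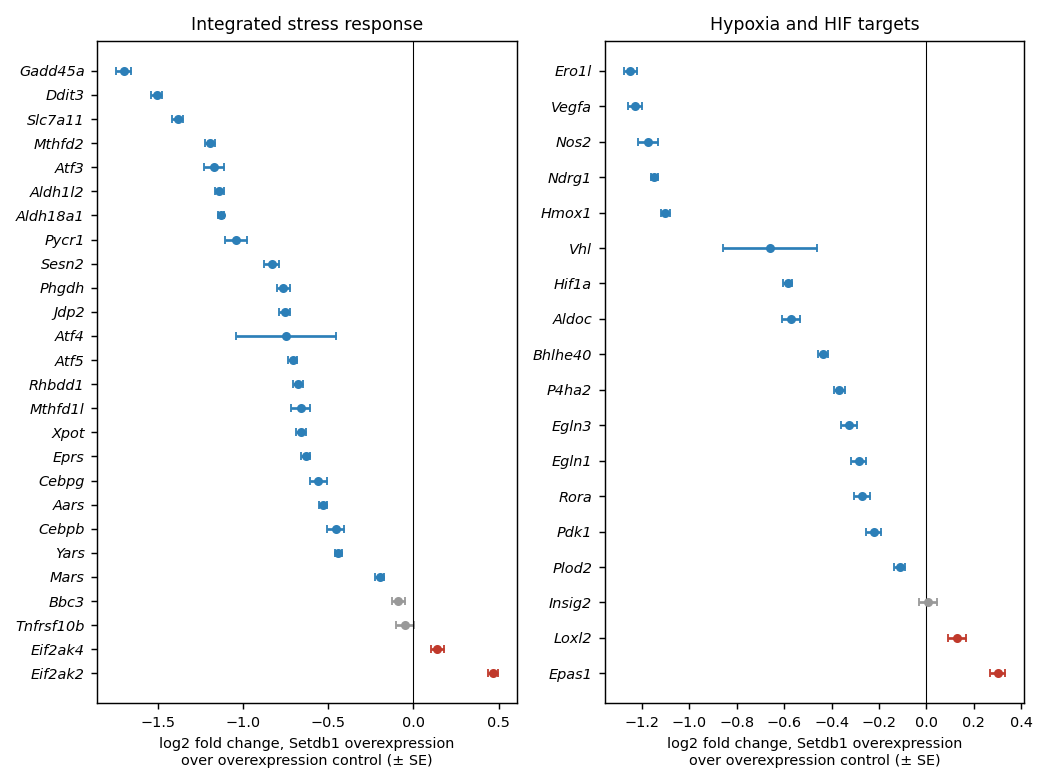
Log2 fold change (x axis, Setdb1 overexpression over overexpression control, bars are 1 SE) of each tested member of the 2 stress response lists (left) and of the hypoxia list (right). Blue points fell, red rose and grey did not pass. Of 26 stress response members 22 lie left of 0 in blue, and of 18 hypoxia members 15 do.

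Most genes that respond to low oxygen were lower too. When oxygen is scarce, the prolyl hydroxylases of the EGLN family stop marking HIF-1α for destruction by VHL, and HIF then induces genes for blood vessel growth, glycolysis and collagen folding. Of 18 tested members, of 48 listed, 15 fell (83.3%, against 31.8% of all tested genes), 2 rose and 1 did not pass, with a median of -0.40. Ndrg1, a stress-induced target of HIF, stood at 70.1, 71.7 and 71.6 FPKM with Setdb1 overexpression, against 158, 158 and 159.9 FPKM in the control (-1.15, SE 0.02, adjusted p = 6e-12). Hmox1, which encodes haem oxygenase, stood at 50.6, 50.5 and 49.6 FPKM, against 110.1, 108 and 108 FPKM in the control (-1.10, SE 0.02). Vegfa, the growth factor of blood vessels, stood at 22.9, 22.04 and 21.7 FPKM, against 55.3, 53.2 and 51.8 FPKM in the control (-1.23, SE 0.03). Each was at less than 0.5 of its control level, with no overlap between groups. The transcript of the HIF subunit itself was lower too, with Hif1a at 49.4, 49.8 and 49.5 FPKM with Setdb1 and 75.3, 75.8 and 73.5 FPKM in the control (-0.58). The oxygen sensor genes Egln1 and Egln3 changed by -0.29 and -0.33 on the log2 scale, and Epas1, which encodes HIF-2α, rose by 0.30. These 3 were chosen after their values were seen. The HIF core ACGTG stood on 1 or other strand in 6 of the 9 falling members with a promoter (66.7%), against 26.8% of tested genes and 19.7% of all promoters. It stood in 6 of all 10 tested members with a promoter (60%), and in 28.9% of all falling genes with a promoter. The list was made of hypoxia and HIF targets, so a high share comes with that choice and is not evidence about the fall. Of 10 tested genes of glycolysis and the pentose phosphate path, 6 fell and 2 rose. The aldolase gene Aldoc (-0.57) and the phosphofructokinase gene Pfkp (-0.35) fell, while both members that rose, Pgd (0.31) and G6pdx (0.18), encode NADPH-producing steps of the pentose phosphate path in the cytosol. The largest fall was H6pd, which encodes a pentose phosphate enzyme of the endoplasmic reticulum, at 2.73, 2.61 and 8.22 FPKM with Setdb1 and 10.6, 9.86 and 10.995 FPKM in the control (-1.20), named after its value was seen. Against the unmodified knockout 12 hypoxia genes fell and 2 rose, and Pdk1, which encodes a kinase that inhibits pyruvate dehydrogenase, did not pass (-0.04, adjusted p = 0.235).

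Of 9 tested genes of folding and quality control in the endoplasmic reticulum, 5 fell and 4 rose. The falls were larger, up to -1.25 against rises of at most 0.25 on the log2 scale. The value of -1.25 is that of Ero1l, which is also counted among the falls of the hypoxia list. Ero1l, which encodes the oxidase that drives disulfide formation, stood at 19.9, 19.7 and 18.5 FPKM with Setdb1 overexpression, against 47.1, 48.004 and 47.05 FPKM in the control (-1.25, SE 0.03, adjusted p = 1.76e-10). The stress sensor genes Ern1 and Atf6 changed by -0.42 and -0.37 on the log2 scale. P4hb, the isomerase gene, had 456, 454 and 456 FPKM with Setdb1 and 547, 554 and 559 FPKM in the control (-0.28), and missed the threshold with quantile normalization (-0.19, adjusted p = 0.0537), where 3 genes of the list fell. The lectin chaperone gene Calr rose, with 332, 339 and 339.6 FPKM with Setdb1 and 285, 277 and 285 FPKM in the control (0.25). Of 8 heat shock chaperone genes 5 rose and 2 fell. The HSP70 gene Hspa8 had 342, 390.1 and 365 FPKM with Setdb1 and 256, 237 and 201 FPKM in the control (0.66, SE 0.10), its co-chaperone gene Bag3 rose by 0.31, and the chaperonin subunit gene Cct3 rose by 0.39.

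Among 32 tested NRF2 targets and redox genes there were 12 rises (37.5%) and 13 falls (40.6%), near the 36.1% and 31.8% over all tested genes, and the median was -0.02. It was 0.01 with quantile normalization, and against the unmodified knockout it was 0.10, with 12 rises and 9 falls. Of the 4 largest falls, Slc7a11, Hmox1 and Sqstm1 are also in the stress response, hypoxia or autophagy lists. The other was Txnip, which encodes an inhibitor of thioredoxin and of glucose uptake. It stood at 32.8, 29.2 and 33.999 FPKM with Setdb1, against 77.95, 63.5 and 78.6 FPKM in the control (-1.17, SE 0.12, adjusted p = 1.01e-05). Gpx4, the peroxidase gene that protects membranes from lipid peroxidation, changed by -0.38 on the log2 scale. Among those that rose, the aldehyde dehydrogenase gene Aldh3a1 stood at 13.9, 14.9 and 15.5 FPKM with Setdb1, against 7.22, 8.41 and 8.03 FPKM in the control (0.83, SE 0.06, adjusted p = 1.64e-06).

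Autophagy and lysosome genes were mostly lower. In autophagy, cargo receptors such as the product of Sqstm1 join tagged proteins to membranes that carry LC3 and GABARAP family proteins, and the contents are degraded in lysosomes. Of 26 tested members, of 65 listed, 20 fell (76.9%) and 2 rose (7.69%), against 31.8% and 36.1% of all tested genes, with a median of -0.18. Sqstm1 stood at 172, 169 and 178 FPKM with Setdb1 overexpression, against 346, 348 and 352 FPKM in the control (-1.004, SE 0.04, adjusted p = 1.3e-08), which is close to 0.5 of its control level. The receptor gene Optn changed by -0.39 and Wipi2, needed for LC3 attachment, by -0.26 on the log2 scale. The largest rise in the list was Atg9b, a gene of a membrane scramblase, at 17.9, 16.6 and 16.2 FPKM with Setdb1 and 9.95, 9.40 and 9.69 FPKM in the control (0.74). Apart from Sqstm1, the falls named here were moderate, with groups that did not overlap.

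Repair of DNA damage is the subject of the series, and breaks are mended by 2 main routes. In end joining, the Ku proteins bind broken ends and recruit the DNA-dependent kinase, and in homologous recombination a resected end copies the sister chromatid. Of 9 tested end joining genes, of 23 listed, 7 fell (77.8%) and 1 rose (11.1%), with a median of -0.21. Over all tested genes 31.8% fell and 36.1% rose. The 1 rise was lost with quantile normalization and against the unmodified knockout. Xrcc6, which encodes Ku70, stood at 14.8, 15.6 and 15.03 FPKM with Setdb1 overexpression, against 20.2, 20.4 and 20.8 FPKM in the control (-0.41, SE 0.03, adjusted p = 1.22e-06). Aptx, which encodes an end-cleaning enzyme, stood at 2.45, 2.48 and 2.36 FPKM, against 3.31, 3.49 and 3.69 FPKM in the control (-0.39, SE 0.05). Prkdc, the kinase gene, and Mad2l2, a shieldin gene, changed by -0.22 and -0.18 on the log2 scale. Of 19 genes of homologous recombination and crosslink repair, of 53 listed, 7 rose (36.8%) and 6 fell (31.6%), with a median of -0.02. These shares were near those over all tested genes. Fanca, a subunit gene of the Fanconi anaemia core complex, stood at 4.51, 4.43 and 4.59 FPKM with Setdb1, against 3.28, 3.52 and 3.24 FPKM in the control (0.34, SE 0.04, adjusted p = 1.66e-05). The nuclease gene Mus81 stood at 7.49, 7.70 and 8.19 FPKM, against 9.59, 9.61 and 9.74 FPKM in the control (-0.28). Its partner gene Eme1 rose (0.29), as did Polq, the polymerase gene of microhomology joining (0.33). Rbbp8, which encodes the resection factor CtIP, fell (-0.20). The difference between the 2 lists was not tested.

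Of 14 damage signalling genes 4 rose and 4 fell (28.6% each), near the 36.1% and 31.8% over all tested genes. Rad9a, a clamp subunit gene, stood at 22.5, 22.2 and 22.2 FPKM with Setdb1, against 31.8, 33.3 and 33.1 FPKM in the control (-0.53, SE 0.04). The ATR activator gene Topbp1 rose by 0.24 on the log2 scale. Of 19 genes of excision, mismatch and translesion repair, 6 rose (31.6%) and 8 fell (42.1%), and 4 rose and 5 fell against the unmodified knockout, with the mismatch gene Msh6 at 39.97, 40.1 and 39.4 FPKM with Setdb1 and 31.1, 32.7 and 32.7 FPKM in the control (0.30), and the damage sensor gene Xpc at 4.61, 4.37 and 4.74 FPKM with Setdb1 and 5.82, 6.35 and 5.94 FPKM in the control (-0.34).

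Of 29 tested p53 targets, of 46 listed, 16 rose (55.2%) and 8 fell (27.6%), with a median of 0.17. Over all tested genes 36.1% rose and 31.8% fell. Ccng1, a cyclin gene that p53 induces, stood at 155, 157 and 153 FPKM with Setdb1 overexpression, against 111, 109 and 109.8 FPKM in the control (0.49, SE 0.02, adjusted p = 1.24e-08). The 2 largest falls in this list, Gadd45a and Sesn2 (-0.83), are also in the stress response list. The kinase gene Plk3 changed by -0.50. Btg2, an antiproliferative gene, rose against the control (0.29) but was lower against the unmodified knockout (-0.12, adjusted p = 0.000437). Of 18 apoptosis genes 7 rose (38.9%) and 5 fell (27.8%), near the shares over all tested genes. The anti-apoptotic gene Bcl2 had 4.64, 4.53 and 4.63 FPKM with Setdb1 and 6.11, 6.41 and 5.93 FPKM in the control (-0.35), and the receptor gene Tnfrsf1b for tumour necrosis factor had 37.1, 37.2 and 37.8 FPKM with Setdb1 and 43.9, 42.5 and 42.03 FPKM in the control (-0.19).

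Genes of mitosis were higher with Setdb1, 36 of 47 tested. Cyclin-dependent kinase 1 and the Aurora and Polo kinases drive entry into mitosis, condensins compact the chromosomes, and the spindle and its checkpoint separate them. The transcripts of these genes peak late in the cell cycle, and many of their promoters hold a cell cycle homology region, read here as TTTGAA. Promoters of 2 members that rose are printed to show that element, from the same RefSeq table and window, with TTTGAA on either strand in capitals. Ckap2 lies outside the rule for named genes, and both were chosen after their values were seen.
Mki67 (chr7:135716330-135716629, minus strand): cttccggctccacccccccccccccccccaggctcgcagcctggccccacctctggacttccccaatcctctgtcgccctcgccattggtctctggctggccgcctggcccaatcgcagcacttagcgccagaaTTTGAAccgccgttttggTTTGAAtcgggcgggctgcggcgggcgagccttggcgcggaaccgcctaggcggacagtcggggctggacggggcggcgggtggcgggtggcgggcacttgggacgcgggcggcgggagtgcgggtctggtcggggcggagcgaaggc
Ckap2 (chr8:22185770-22186069, minus strand): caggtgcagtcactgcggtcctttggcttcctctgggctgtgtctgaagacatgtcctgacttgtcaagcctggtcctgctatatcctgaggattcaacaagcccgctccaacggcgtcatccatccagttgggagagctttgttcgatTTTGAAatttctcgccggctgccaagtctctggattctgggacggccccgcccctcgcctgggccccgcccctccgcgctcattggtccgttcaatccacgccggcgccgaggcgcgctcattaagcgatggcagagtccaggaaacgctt
The element was found in 23 of the 30 rising members with a promoter (76.7%), against 13.2% of 1652 tested genes and 18.1% of all promoters. It stood in 30 of all 41 tested members with a promoter (73.2%), whether or not they rose.

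Of 47 tested mitosis genes, of 78 listed, 36 rose (76.6%, against 36.1% of all tested genes) and 1 fell, with a median of 0.22. Mki67, the proliferation marker Ki-67, stood at 32.5, 31.04 and 30.7 FPKM with Setdb1 overexpression, against 19.8, 19.5 and 18.7 FPKM in the control (0.67, SE 0.05, adjusted p = 8.41e-07). Plk1, the Polo kinase gene, stood at 29.5, 29.5 and 29.6 FPKM, against 19.03, 19.2 and 18.3 FPKM in the control (0.62, SE 0.03, adjusted p = 1.03e-07). Anln, the anillin gene of the contractile ring, stood at 21.9, 21.7 and 22.04 FPKM, against 15.1, 14.7 and 14.6 FPKM in the control (0.54, SE 0.03). In all 3 the groups were separate, with every Setdb1 library above every control library. Ckap2, a spindle gene, had 33.02, 32.3 and 27.3 FPKM with Setdb1 and 20.6, 20.5 and 17.9 FPKM in the control (0.62). The kinetochore gene Cenpf rose by 0.47 and the condensin gene Ncapd2 by 0.34. The 1 that fell was Ndc80, a kinetochore gene (-0.29), named after its value was seen. A share of dividing cells and a level per cell cannot be told apart in bulk RNA.

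Of 39 tested replication genes, of 74 listed, 15 rose (38.5%) and 11 fell (28.2%), near the 36.1% and 31.8% over all tested genes, with a median of 0.03. Both subunit genes of ribonucleotide reductase rose. Rrm1 stood at 33.1, 33.2 and 33.3 FPKM with Setdb1, against 25.4, 25.3 and 26.1 FPKM in the control (0.36, SE 0.02), and Rrm2 stood at 47.5, 45.2 and 45.9 FPKM, against 34.7, 34.7 and 35.5 FPKM in the control (0.39, SE 0.02). The helicase subunits differed among themselves, with Mcm5 up (0.26) and Mcm2 and Mcm6 down (-0.30 and -0.22), each with groups that did not overlap.

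**Figure D3:**
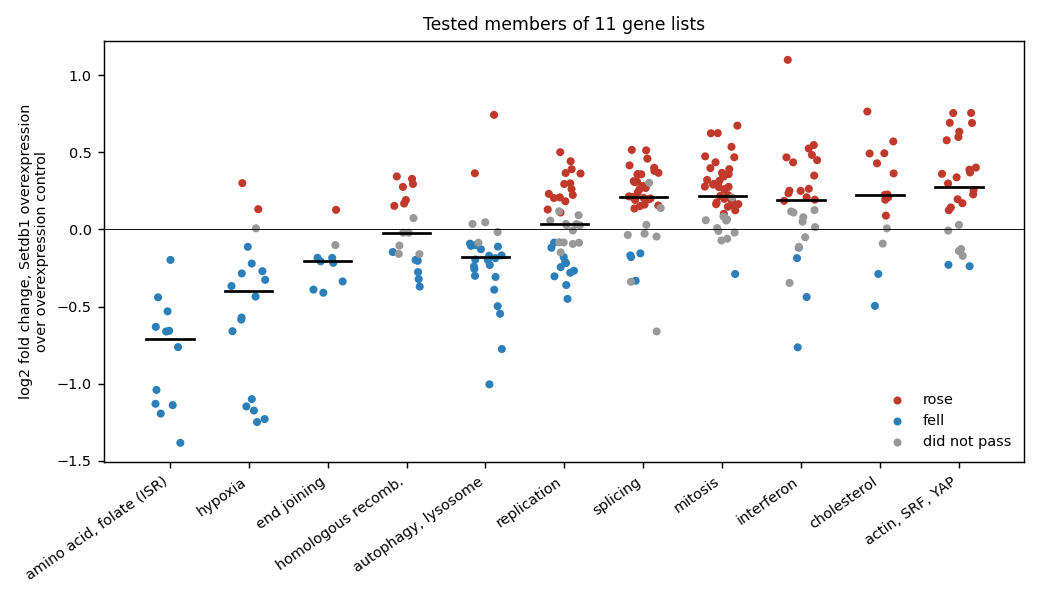
Log2 fold change (y axis, Setdb1 overexpression over overexpression control) of each tested member of 11 gene lists (x axis). Red points rose, blue fell and grey did not pass, and black lines are list medians. Medians run from -0.71 for the amino acid and folate list (ISR, integrated stress response) to 0.28 for actin, SRF and YAP targets, and replication and homologous recombination lie near 0.

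Of 55 listed genes of H3K9 methylation and heterochromatin, which include enzymes that place and remove the mark, 17 were tested. Of these, 9 rose (52.9%) and 3 fell (17.6%), against 36.1% and 31.8% of all tested genes, with a median of 0.17. Suv39h1, which encodes another H3K9 methyltransferase, stood at 9.90, 9.78 and 10.4 FPKM with Setdb1 overexpression, against 7.61, 7.65 and 7.52 FPKM in the control (0.36, SE 0.03, adjusted p = 1.87e-06). Kdm4a, which encodes an H3K9 demethylase, stood at 12.7, 12.2 and 12.6 FPKM, against 16.2, 17.7 and 17.3 FPKM in the control (-0.42, SE 0.03). Trim28, the co-repressor that recruits SETDB1, rose by 0.23, and the DNA methylation genes Dnmt1 and Uhrf1 rose by 0.21 and 0.23 on the log2 scale. Of 35 polycomb and other chromatin genes, of 100 listed, 8 rose (22.9%) and 15 fell (42.9%). The polycomb reader gene Cbx2 stood at 7.34, 7.38 and 7.56 FPKM with Setdb1, against 9.69, 10.1 and 9.91 FPKM in the control (-0.37, SE 0.04). The remodeller gene Smarca4 stood at 35.4, 35.4 and 36.04 FPKM with Setdb1, against 26.7, 25.9 and 26.5 FPKM in the control (0.42, SE 0.03).

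Few germline genes silenced by H3K9 methylation or polycomb in other cells were in the selection. Of 53 listed, 2 were tested and neither passed against the control. Prdm9, the meiotic methyltransferase gene, had 1.80, 1.66 and 1.53 FPKM with Setdb1 and 1.63, 1.60 and 1.34 FPKM in the control (0.08, adjusted p = 0.251). Cpeb1, a regulator of messenger RNA polyadenylation, had 0.878, 1.05 and 0.947 FPKM with Setdb1 and 0.903, 1.25 and 1.12 FPKM in the control (-0.09, adjusted p = 0.254), and fell against the unmodified knockout (-0.23, adjusted p = 0.0126). Of 39 tested genes with Zfp, Zbtb or Zscan symbols, 21 rose (53.8%) and 7 fell (17.9%), against 36.1% and 31.8% of all tested genes. With the unmodified knockout as reference 11 rose and 8 fell. Most of these encode C2H2 zinc finger proteins, but Zfp36, Zfp36l1 and Zfp36l2 encode RNA-binding proteins of another kind. Zfp207, a spindle assembly gene, stood at 25.5, 26.002 and 25.98 FPKM with Setdb1, against 21.6, 21.2 and 21.5 FPKM in the control (0.26), and Zfp639 stood at 4.01, 4.45 and 3.84 FPKM, against 7.07, 7.004 and 6.78 FPKM in the control (-0.64). Transcripts of retrotransposons were not analysed here.

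Splicing factor genes were mostly higher. Of 39 tested, of 87 listed, 27 rose (69.2%, against 36.1% of all tested genes) and 4 fell, with a median of 0.21. Without Setdb1 library 1 the falls were 2. Hnrnpa1, which encodes an RNA-binding repressor of splice sites, stood at 192, 196 and 191 FPKM with Setdb1 overexpression, against 147, 145 and 147 FPKM in the control (0.40, SE 0.02, adjusted p = 5.96e-08). Hnrnpd stood at 17.2, 17.5 and 18.3 FPKM, against 13.5, 13.4 and 13.1 FPKM in the control (0.38). Srsf2 and Srsf6, which encode serine- and arginine-rich activators, rose by 0.31 and 0.28. Of 7 tested genes of the m6A machinery, 3 rose and 2 fell. Mettl3, the catalytic writer gene, had 2.15, 2.74 and 2.38 FPKM with Setdb1 and 2.92, 3.002 and 2.95 FPKM in the control (-0.21), and missed the threshold without Setdb1 library 1 (adjusted p = 0.0584). The writer complex gene Virma rose by 0.12, and Fmr1, a translation repressor gene whose product binds m6A RNA, rose by 0.28.

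Cytoskeletal genes were mostly higher, 19 of 26 tested. Actin assembly frees the coactivators MRTF and YAP to enter the nucleus, where SRF and TEAD factors induce genes of the cytoskeleton and of adhesion. Of 26 tested targets, of 60 listed, 19 rose (73.1%) and 2 fell (7.69%), with a median of 0.28. Over all tested genes 36.1% rose and 31.8% fell. Ccn2, a matricellular gene that YAP induces, stood at 191, 189 and 191 FPKM with Setdb1 overexpression, against 121, 124 and 122 FPKM in the control (0.63, SE 0.02, adjusted p = 8.77e-10). Thbs1, the thrombospondin gene, stood at 16.3, 16.4 and 15.8 FPKM, against 9.40, 9.19 and 8.94 FPKM in the control (0.75, SE 0.03, adjusted p = 7.4e-09). Csrp2, a LIM protein gene, stood at 14.7, 16.2 and 17.3 FPKM, against 9.22, 9.11 and 8.98 FPKM in the control (0.75). All 3 were separate between groups. The non-muscle myosin gene Myh9 rose by 0.34 and the cofilin gene Cfl1 by 0.26. Of 36 genes of the extracellular matrix 16 rose (44.4%) and 9 fell (25%). The collagen gene Col8a1 was at 0.45 and the protease inhibitor gene Timp2 at -0.27 on the log2 scale. Of 29 adhesion receptor genes 12 rose (41.4%) and 10 fell (34.5%), and 7 rose and 6 fell against the unmodified knockout. The proteoglycan gene Sdc4 had 159, 166 and 164 FPKM with Setdb1 and 117, 121 and 117 FPKM in the control (0.45). None of 3 protocadherin genes passed, and Pcdh7 was uneven, at 16.7, 15.3 and 5.74 FPKM with Setdb1 and 12.6, 7.73 and 11.998 FPKM in the control.

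Of 12 tested keratin and epithelial genes, 4 rose (33.3%) and 6 fell (50%). Krt6a, a keratin of stressed and wounded epithelium, stood at 5.15, 5.42 and 4.94 FPKM with Setdb1, against 1.27, 1.31 and 1.33 FPKM in the control (1.42, SE 0.06, adjusted p = 2.93e-08). Grhl3, a transcription factor gene of epithelial barriers, stood at 4.72, 5.15 and 4.78 FPKM, against 2.87, 2.49 and 2.45 FPKM in the control (0.71). Krt19, a keratin of simple epithelium, stood at 260.5, 268 and 257 FPKM, against 305, 301 and 316 FPKM in the control (-0.23). Krt6a was thus a low gene that rose and Krt19 a high gene that fell.

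Interferon-stimulated genes rose in part. Interferons act through a transcription factor complex that binds elements with repeats of GAAA, and the induced proteins bind or cut viral RNA. The Irgm1 promoter is printed because it holds the element. Among the rising members that hold it, Irgm1 had the largest log2 fold change, and the choice was made after values were seen. Capitals mark the element, searched on either strand as GAAA, any 2 bases and GAAA, with 2 matches that overlap.
Irgm1 (chr11:48871371-48871670, minus strand): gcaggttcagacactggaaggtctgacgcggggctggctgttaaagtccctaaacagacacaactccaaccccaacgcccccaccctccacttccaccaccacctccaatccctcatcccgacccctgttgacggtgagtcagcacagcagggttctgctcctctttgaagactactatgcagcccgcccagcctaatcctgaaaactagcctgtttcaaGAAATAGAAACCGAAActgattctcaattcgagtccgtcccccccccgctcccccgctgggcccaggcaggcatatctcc
The element stood in 7 of the 11 rising members with a promoter (63.6%) and in 11 of 23 tested members, against 3.51% of tested genes and 3.49% of all promoters. Of 28 tested members, of 75 listed, 15 rose (53.6%) and 4 fell (14.3%), with a median of 0.19. Over all tested genes 36.1% rose and 31.8% fell. Irgm1, a GTPase gene, stood at 14.1, 14.9 and 14.6 FPKM with Setdb1 overexpression, against 9.98, 9.53 and 9.89 FPKM in the control (0.52, SE 0.03, adjusted p = 2.78e-07). The transcription factor gene Irf7 stood at 9.39, 9.32 and 9.25 FPKM, against 5.27, 6.45 and 6.54 FPKM in the control (0.55), and Ifi27l2a at 10.3, 13.7 and 11.9 FPKM, against 4.89, 4.44 and 5.80 FPKM in the control (1.10). Ifit1, whose product binds foreign RNA ends, rose by 0.45. Irf1 fell (-0.76, with uneven libraries of 11.04, 11.1 and 18.1 FPKM with Setdb1 and 24.8, 21.8 and 22.2 FPKM in the control), and was named after its value was seen.

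Of 17 NF-kB, cytokine and innate immune genes, 3 rose (17.6%) and 7 fell (41.2%), against 36.1% and 31.8% of all tested genes. Nos2, which encodes the inducible nitric oxide synthase, stood at 3.91, 3.70 and 3.42 FPKM with Setdb1, against 9.19, 9.46 and 9.99 FPKM in the control (-1.17, SE 0.04). The NF-kB subunit gene Nfkb2 stood at 39.5, 40.4 and 40.6 FPKM, against 53.1, 50.9 and 53.7 FPKM in the control (-0.38), and Relb changed by -0.54. Gch1, which encodes the first enzyme of a cofactor that nitric oxide synthases need, stood at 5.49, 5.27 and 5.21 FPKM with Setdb1, against 10.1, 9.45 and 10.02 FPKM in the control (-0.78). The adhesion gene Vcam1 (0.46) and the prostaglandin synthase gene Ptgs2 (0.29) rose.

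For immediate early genes the direction depended on which knockout libraries served as reference. Of 26 tested, 11 rose and 6 fell against the overexpression control, with a median of 0.05, and 1 rose and 17 fell against the unmodified knockout, with a median of -0.23. The AP-1 gene Junb, at 41.8, 41.6 and 42.6 FPKM with Setdb1 and 63.4, 64.7 and 62.1 FPKM in the control (-0.58), and the factor gene Klf4 (-0.50) fell against the control. Ccn1 rose by 0.30 against the control and stood at -0.02 against the unmodified knockout (adjusted p = 0.324). In the unmodified knockout 2 of 3 libraries carried red cell transcripts, up to 602 FPKM over 5 genes, and the part of this in the difference was not tested. Signalling genes outside this list included Ccnd2, a D-type cyclin gene, at 10.1, 10.2 and 10.05 FPKM with Setdb1 and 18.2, 18.8 and 18.6 FPKM in the control (-0.81), and Ccnd1, another one, at 60.2, 60.2 and 63.6 FPKM with Setdb1 and 48.9, 47.8 and 49.3 FPKM in the control (0.33). The 2 cyclin genes moved in opposite directions. Of 17 TGF-beta family genes 7 rose and 5 fell, and 5 rose and 5 fell against the unmodified knockout, with the receptor gene Tgfbr2 at 0.25 and Tgfbr1 at -0.28 on the log2 scale, and of 14 Wnt genes 3 rose and 4 fell.

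Cholesterol genes were mostly higher, 11 of 15 tested. SREBP2 induces this path when sterols in the endoplasmic reticulum are low. Of 15 tested, of 37 listed, 11 rose (73.3%) and 2 fell (13.3%), with a median of 0.22. Over all tested genes 36.1% rose and 31.8% fell. Hsd17b7, which encodes a reductase of the path, stood at 10.3, 10.1 and 9.87 FPKM with Setdb1 overexpression, against 6.997, 6.51 and 7.14 FPKM in the control (0.49, SE 0.04, adjusted p = 2.52e-06). Nsdhl, which encodes a dehydrogenase of the path, stood at 16.95, 18.7 and 17.8 FPKM, against 12.8, 12.4 and 11.95 FPKM in the control (0.49, SE 0.04). Cyp51, the lanosterol demethylase gene, rose by 0.36 on the log2 scale. Against the unmodified knockout 7 rose and 2 fell, with a median of 0.05. The sterol element TCACNCCAC was in none of the 8 rising members with a promoter, against 1.09% of tested genes, which says only that these letters are not in the window. Of 11 fatty acid genes 3 rose and 6 fell, and against the unmodified knockout 4 rose and 2 fell, with the synthase gene Fasn (0.39) and the desaturase gene Scd1 (0.31) among those that rose.

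Among 19 nuclear genes of oxidative phosphorylation there were 9 rises (47.4%) and 6 falls (31.6%), and 4 rises and 5 falls once a trend with transcript GC and length was taken out. Among 6 mitochondrially encoded transcripts mt-Nd1, mt-Nd2 and mt-Nd6 rose by 0.18, 0.12 and 0.19 on the log2 scale, and none of these calls held with quantile normalization or with that trend taken out. Of 18 ribosomal protein genes 3 rose and 5 fell. The falls were 2 without control library 2, where the median was 0.01 in place of -0.05, 2 without Setdb1 library 2, 3 without Setdb1 library 1, 3 with quantile normalization and 2 against the unmodified knockout. Also, many of these ribosomal protein genes have near-identical pseudogenes, so their values are uncertain.

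Markers were read to check the labelled cell type. Of 33 spermatogonial markers listed, 8 were in the table, and the defining markers outside it were not analysed here. The 8 summed to 95.7 to 102 FPKM with Setdb1 overexpression, against 120 to 123 FPKM in the control, 113 to 116 FPKM in the unmodified knockout and 177 to 181 FPKM in wild-type cells. The 8 were Etv5, Itga6, Cd9, Foxo1, Bcl6b, Tspan8, Gdnf and Ccnd2. Of these, 6 fell with Setdb1 (75%) and 1 rose (12.5%), against 31.8% and 36.1% of all tested genes. Gdnf and the D-type cyclin gene Ccnd2 are among the 6 that fell and account for part of the lower sum. With the unmodified knockout as reference 4 fell and 1 rose, and Cd9 did not pass (-0.02, adjusted p = 0.653). Gdnf, a growth factor that Sertoli cells normally supply to spermatogonia and which is also in the Sertoli list, stood at 8.14, 8.75 and 8.27 FPKM with Setdb1, against 12.9, 12.9 and 12.5 FPKM in the control (-0.55, SE 0.03), and Etv5, a gene of stem cell renewal, changed by -0.34. Of 6 Sertoli markers 2 rose and 2 fell, both fibroblast markers tested, Pdgfra and Fn1, fell (-0.15 and -0.15), although Pdgfra did not pass against the unmodified knockout (-0.04, adjusted p = 0.274), and the 1 endothelial marker tested, Tek, rose (0.50). The part of these markers in the results was not tested. Of 16 keratin and epithelial genes the sum was 463 to 478 FPKM with Setdb1 and 482 to 497 FPKM in the control, so epithelial transcripts were present in cells labelled spermatogonia. Red cell markers summed to 0.258 to 0.614 FPKM with Setdb1 and 0.199 to 0.626 FPKM in the control, with all 5 under 1 FPKM, and none of 4 tested passed. Of 6 leukocyte and platelet markers 4 were under 1 FPKM, and most of their sum was Cd68, a lysosomal membrane gene, with 99.3, 96.5 and 94.6 FPKM with Setdb1 and 111, 118 and 113 FPKM in the control (-0.24).

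The remaining genes with the largest changes were as follows. The uncharacterised transcript 4930438A08Rik stood at 3.63, 3.38 and 3.50 FPKM with Setdb1 overexpression, against 11.8, 11.7 and 12.4 FPKM in the control (-1.53, SE 0.03). Dhrs9, a dehydrogenase gene of retinol and steroid metabolism, stood at 6.63, 6.62 and 6.77 FPKM, against 16.2, 16.2 and 16.3 FPKM in the control (-1.17, SE 0.04). Zbtb42, one of the zinc finger genes, was uneven, at 0.832, 1.03 and 4.89 FPKM with Setdb1 and 5.14, 6.57 and 5.54 FPKM in the control (-1.27, SE 0.35). The other 2 genes were even across libraries. Gm20521 stood at 3.41, 2.80 and 1.89 FPKM with Setdb1. In all 3 control libraries it was at 1e-04 FPKM, which stands in place of 0, so no fold is given. Wdr6 had 34.01, 33.5 and 35.3 FPKM with Setdb1 and 20.7, 19.6 and 20.1 FPKM in the control (0.74). Mical2, an actin oxidase gene, had 23.7, 21.8 and 23.2 FPKM with Setdb1 and 14.95, 14.3 and 11.4 FPKM in the control (0.72). Rbm8a, an exon junction gene, had 18.9, 19.9 and 20.1 FPKM with Setdb1 and 11.6, 11.4 and 11.6 FPKM in the control (0.72). In each of these 4 the Setdb1 libraries were all higher, which the naming rule required.

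**Figure D4:**
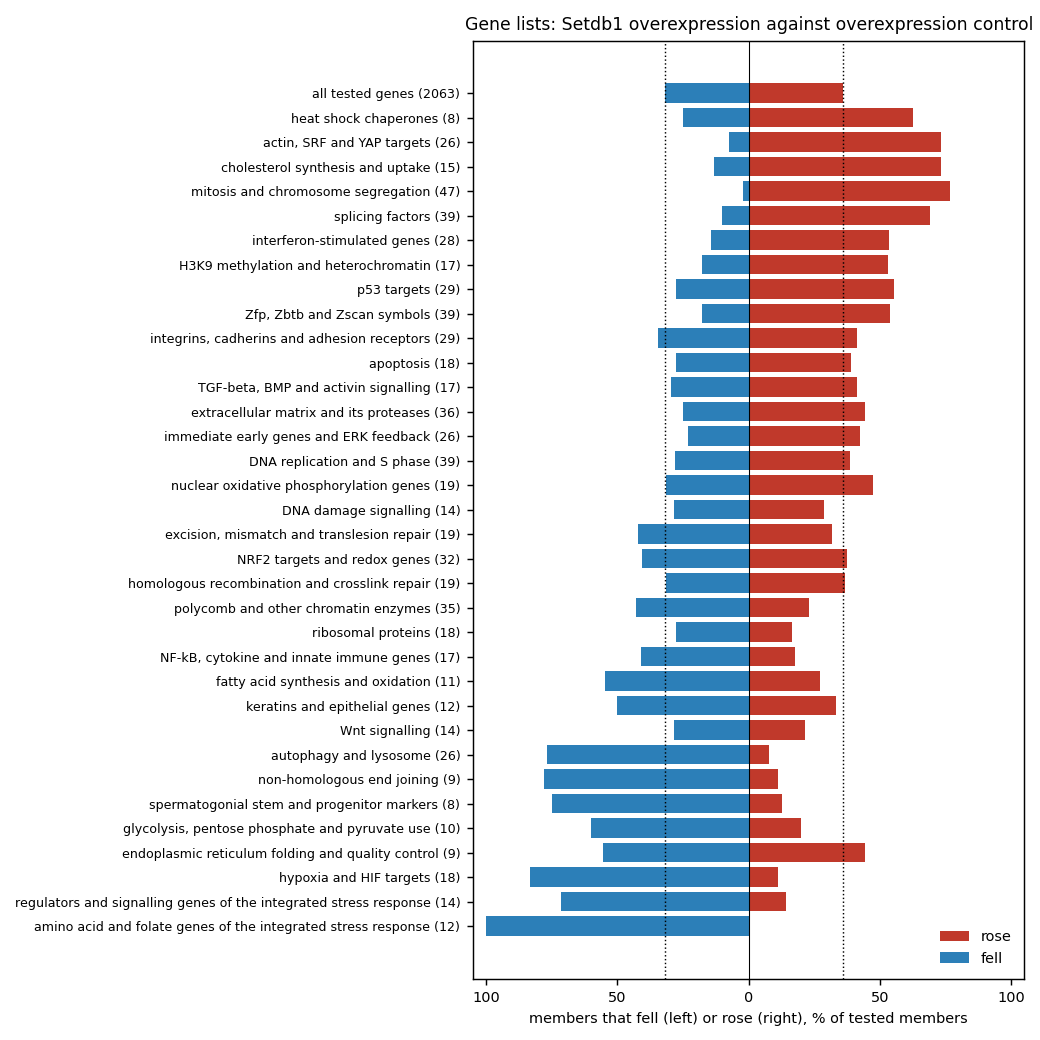
Share of tested members (x axis, %) that rose (red, right) or fell (blue, left) in each gene list with at least 8 tested members (y axis, number tested in parentheses), for Setdb1 overexpression against overexpression control. Dotted lines mark the shares over all 2063 tested genes, 36.1% and 31.8%. Amino acid and folate genes fell in 100% of cases and mitosis genes rose in 76.6%.

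The last question was how these changes relate to those of the knockout itself, which share no library with them. In unmodified knockout cells against wild-type cells 779 genes rose (37.8%) and 815 fell (39.5%), a total of 77.3%. Of the 779 that rose in the knockout, 289 rose and 232 fell with Setdb1 overexpression (37.1% and 29.8%). Of the 815 that fell in the knockout, 275 rose and 257 fell with Setdb1 overexpression (33.7% and 31.5%). Counted the other way, the 289 were 38.8% and the 275 were 37.0% of the 744 genes that rose with Setdb1, and the 232 were 35.4% and the 257 were 39.2% of the 656 that fell. All 4 shares of the knockout's changes lie within 3 percentage points of the share over all tested genes, 36.1% and 31.8%. Read against that background, none of the 4 combinations stood out over the whole selection.

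Single lists differed from that picture. Of the 47 mitosis genes, 36 rose and 1 fell with Setdb1, and 1 rose and 43 fell in the knockout. Of the 26 autophagy and lysosome genes, 2 rose and 20 fell with Setdb1, and 17 rose and 6 fell in the knockout. Of the 17 heterochromatin genes, 9 rose and 3 fell with Setdb1, and 1 rose and 12 fell in the knockout. Some other lists had most of their changes in the same direction in both comparisons. Of the 12 amino acid and folate genes, 12 fell with Setdb1 and 11 fell in the knockout, whereas of the 14 regulators of the stress response 2 rose and 10 fell with Setdb1 and 7 rose and 1 fell in the knockout. Of the 28 interferon genes, 15 rose and 4 fell with Setdb1 and 22 rose and 2 fell in the knockout. Of the 26 actin, SRF and YAP targets, 19 rose and 2 fell with Setdb1, and 17 rose and 2 fell in the knockout.

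**Figure D5:**
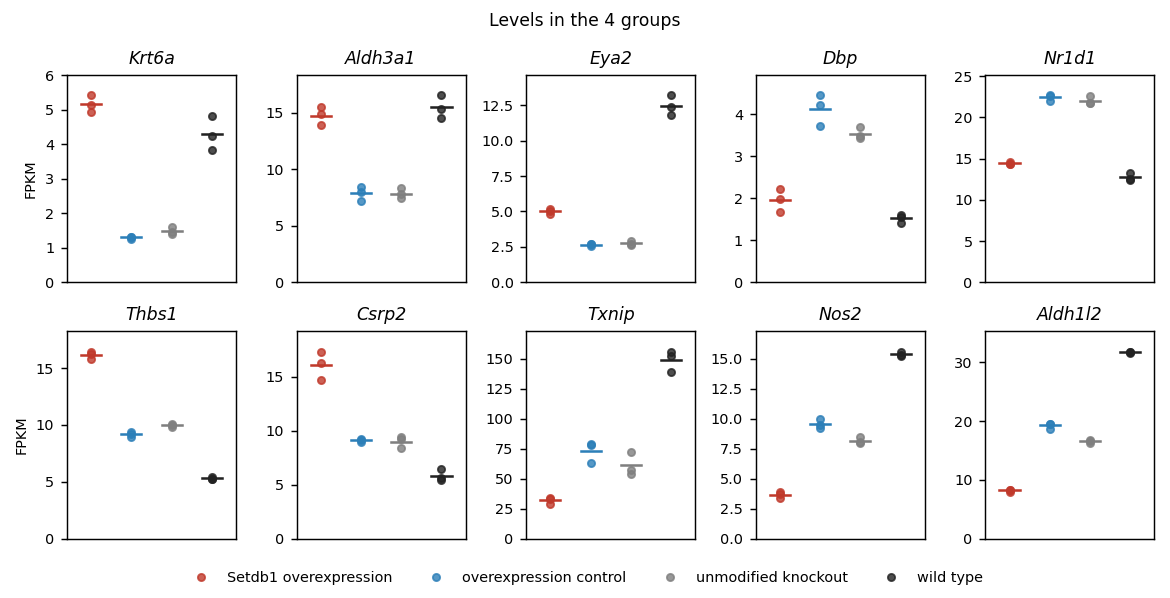
FPKM (y axis, from 0) of 10 genes in the 4 groups, in the order Setdb1 overexpression (red), overexpression control (blue), unmodified knockout (grey) and wild type (black). Points are single libraries and lines are group means. Krt6a, Aldh3a1, Dbp and Nr1d1 with Setdb1 lie nearer to wild type than to either other knockout group, and Thbs1, Csrp2, Txnip, Nos2 and Aldh1l2 lie farther from it than the other groups. The genes were chosen by their directions in both comparisons, so these positions follow in part from the choice.

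Among genes that fell in the knockout and rose with Setdb1, Krt6a stood at 5.17 ± 0.241 FPKM with Setdb1, 1.30 ± 0.0289 FPKM in the control, 1.49 ± 0.101 FPKM in the unmodified knockout and 4.30 ± 0.488 FPKM in wild-type cells (SD, n = 3 each). Aldh3a1 stood at 14.8 ± 0.820 FPKM with Setdb1, 7.89 ± 0.607 FPKM in the control, 7.86 ± 0.448 FPKM in the unmodified knockout and 15.5 ± 1.01 FPKM in wild-type cells. Eya2, a phosphatase gene of the damage response, reached 5.001 ± 0.158 FPKM with Setdb1, against 2.63 ± 0.0823 FPKM in the control, 2.77 ± 0.161 FPKM in the unmodified knockout and 12.5 ± 0.694 FPKM in wild-type cells. With Setdb1, Krt6a was a little above every wild-type library, Aldh3a1 overlapped the wild-type libraries and Eya2 stayed well below them.

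Among genes that rose in the knockout and fell with Setdb1 were 2 of the circadian clock. Dbp, a clock-controlled activator gene, stood at 1.96 ± 0.271 FPKM with Setdb1, 4.13 ± 0.370 FPKM in the control, 3.53 ± 0.142 FPKM in the unmodified knockout and 1.52 ± 0.0929 FPKM in wild-type cells. Nr1d1, which encodes the clock repressor REV-ERBα, stood at 14.5 ± 0.141 FPKM with Setdb1, 22.4 ± 0.398 FPKM in the control, 22.01 ± 0.459 FPKM in the unmodified knockout and 12.7 ± 0.430 FPKM in wild-type cells. With Setdb1 both were nearer to wild type than to the control, though still above every wild-type library. Flcn, a regulator gene of lysosomal signalling, was uneven with Setdb1, at 21.2, 13.6 and 12.9 FPKM with Setdb1 and 26.6, 26.8 and 28.3 FPKM in the control (-0.78). Wdr81 also met the rule, but its libraries overlapped, at 6.30, 9.47 and 4.25 FPKM with Setdb1 and 14.3, 8.25 and 13.7 FPKM in the control, and it missed the threshold without control library 1, control library 3 or Setdb1 library 3 (adjusted p = 0.0734, 0.0686 and 0.0793) and in a fit on the 6 libraries alone (adjusted p = 0.0534).

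Other genes moved the same way in both comparisons. Txnip stood at 31.99 ± 2.48 FPKM with Setdb1, 73.4 ± 8.56 FPKM in the control, 61.05 ± 9.97 FPKM in the unmodified knockout and 149 ± 8.93 FPKM in wild-type cells. Aldh1l2 stood at 8.20 ± 0.267 FPKM with Setdb1, 19.3 ± 0.541 FPKM in the control, 16.6 ± 0.260 FPKM in the unmodified knockout and 31.7 ± 0.166 FPKM in wild-type cells. Thbs1 stood at 16.2 ± 0.336 FPKM with Setdb1, 9.18 ± 0.231 FPKM in the control, 9.97 ± 0.155 FPKM in the unmodified knockout and 5.30 ± 0.0877 FPKM in wild-type cells. In all 3 the Setdb1 libraries were the farthest of the 4 groups from wild type. These genes were chosen for large changes in the same direction in both comparisons, which favours that order. Lgals3bp, a secreted glycoprotein gene, had 31.5, 30.9 and 21.2 FPKM with Setdb1 and 16.4, 16.2 and 16.7 FPKM in the control (0.71), and missed the threshold without Setdb1 library 1 or 2 (adjusted p = 0.0542 and 0.051) and against the unmodified knockout (adjusted p = 0.0574).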

How the data were processed

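RNA-seq of 12 libraries in 4 groups of 3 was used. The authors deposited 1 table of FPKM values for a preselected 2281 genes, with no read counts. Per the submitters' processing notes the tools were HISAT2, StringTie, cutadapt, DESeq2 and edgeR, without versions, and the genome build was not given in the sources used here. The authors also deposited p-values and q-values, which reach 0.05 and 0.113, with no comparison named in the file headers, and these were not used to test anything. The lowest value, 1e-04 FPKM, stands in place of 0. All 2281 gene IDs matched GENCODE M21 symbols. The 2063 genes with at least 1 FPKM in at least 3 libraries were analysed as log2(FPKM + 1) with limma-trend (limma 3.58.1, R 4.3.3) in 1 model of 4 group means, with Benjamini-Hochberg adjustment over the 2063. The calculation was tested on simulated data.

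Lists and members were chosen with earlier results of these data known, and the alternatives are other scalings, filters, pseudocounts and fits. Named genes are the 12 largest rises and 12 largest falls that passed, did not overlap and held without each library in turn, up to 5 list members by absolute moderated t, and 4 per combination of directions in both comparisons. Promoters are from RefSeq, GRCm38.p6. Lists are described by counts and medians, with no test of a list. Some genes that met the rule are not reported here.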

Additional observations from a re-analysis of the deposited data

How the results depend on the processing

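The count of genes that rose was 701 to 767 and the count that fell 627 to 696 under other scalings, filters, pseudocounts, fits and references, and on leaving out 1 library it was 687 to 701 and 615 to 630, against 744 and 656. With a replicate block 733 rose and 656 fell, and same-numbered libraries of these 2 groups did not deviate together (r = -0.028, -0.038 and -0.007), so the numbers are not taken as a pairing. In knockout against wild type the block gave 778 and 808, and the correlations were -0.700, 0.413 and -0.496. Differently numbered libraries of those groups also deviated together or in opposite directions. Wild-type library 1 had r = -0.494 and 0.767 with knockout libraries 2 and 3. Wild-type library 2 had 0.637 and -0.679 with libraries 1 and 3, and wild-type library 3 had 0.432 and 0.351 with libraries 1 and 2. What these deviations reflect was not tested. A further fit of knockout against wild type left out 4 libraries for their red cell transcripts. Every wild-type library summed to at least 5.20 FPKM of red cell markers, so the 1 that was kept carried them too. That fit has 1 library in each group, assumed to vary like the other 2 groups, so it does not show how the comparison depends on those transcripts. Of 214 named genes, 28 changed a call under any of 15 alternatives. With the unmodified knockout as reference, a choice made after seeing the data, Bcar1 (-0.0048), Btg2 (-0.1224), Ccn1 (-0.0223) and Ncam1 (0.0203) changed direction. With quantile normalization mt-Nd6 did (-0.0562). The cause was not tested. FPKM values without counts give no depth, so counting error cannot be set beside these values.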

Other observations

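The table carries 25 Gene Ontology target terms that the authors attached to its genes. The labels for DNA-binding transcription factor activity and for apoptotic process mark the same 257 genes. By the full annotation in the authors' deposited table, 161 of the 257 carry the transcription factor term and 2 carry the apoptotic term, while 51 genes of the table carry the apoptotic term. The target labels were therefore not used as gene groups here.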
